A study of Mus musculus with 10 samples.

Results

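The BMP axis examined here comprised 9 genes out of the 49568 in the table of 10 mouse pancreatic cancer cell lines: the secreted antagonist gremlin (Grem1), the ligands Bmp4 and Bmp7, the receptors Bmpr1a and Bmpr2, the inhibitory factor Smad6, and the targets Id1, Id2 and Id3. They were found by symbol. Grem1 and Id2 were chosen by their measured difference between the genotypes of these lines, so their levels and differences are given as a description with no test. The other 7 were listed with them as parts of the same pathway. The lines were 5 KPCAf/f lines (A1693, A1809, A1925, A2441 and A3992) and 5 KPC lines (A1081, A1620, A1625, A2031 and A2032), with 1 messenger RNA library from each, all grown in DMEM with fetal bovine serum and given no other treatment by the labels. KPC names a mouse pancreatic cancer model in which Cre recombines engineered alleles in the pancreas. KPCAf/f is taken to carry floxed Arid1a alleles in addition, from the series title. The sources used here do not give the promoter driving Cre, the animals' ages or whether each line came from its own mouse. A p-value here reflects how far these lines vary, which may be technical in part.

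BMPs are secreted ligands that bring together type I receptors such as Bmpr1a and type II receptors such as Bmpr2, which then phosphorylate SMAD1, SMAD5 and SMAD9. With SMAD4 these enter the nucleus and induce Id genes, whose products bind E proteins and keep them off DNA, and also Smad6, which feeds back on the receptors. Gremlin binds BMP2, BMP4 and BMP7 outside the cell and is known in the gut and in tumours as a product of stromal cells.

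Grem1 and Id2 were picked for their difference, and the difference of Id3 did not pass the test. The promoters of these 3 genes are shown. Each runs from 250 bases before the start of transcription to 50 bases after it, 5′ to 3′ on the gene's strand (RefSeq, GRCm38.p6). Capitals mark GGCGCC, a GC-rich motif bound by SMAD1 and SMAD5 that reads the same on both strands, and CAGAC or its reverse GTCTG, a SMAD box. The positions are chr2:113758599-113758898 on the minus strand for Grem1, chr12:25096043-25096342 on the minus strand for Id2, and chr4:136143572-136143871 on the plus strand for Id3.
Grem1: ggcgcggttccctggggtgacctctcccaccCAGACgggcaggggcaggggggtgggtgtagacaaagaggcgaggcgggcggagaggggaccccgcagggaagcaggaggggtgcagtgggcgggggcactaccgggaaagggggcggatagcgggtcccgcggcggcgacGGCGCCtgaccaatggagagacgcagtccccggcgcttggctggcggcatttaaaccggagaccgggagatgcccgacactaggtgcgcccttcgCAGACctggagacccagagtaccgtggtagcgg
Id2: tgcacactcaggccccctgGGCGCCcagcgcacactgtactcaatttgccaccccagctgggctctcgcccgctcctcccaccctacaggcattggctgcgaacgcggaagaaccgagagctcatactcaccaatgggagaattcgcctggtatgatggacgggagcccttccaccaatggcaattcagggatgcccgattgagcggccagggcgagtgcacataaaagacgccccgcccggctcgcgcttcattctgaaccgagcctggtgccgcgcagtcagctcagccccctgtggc
Id3: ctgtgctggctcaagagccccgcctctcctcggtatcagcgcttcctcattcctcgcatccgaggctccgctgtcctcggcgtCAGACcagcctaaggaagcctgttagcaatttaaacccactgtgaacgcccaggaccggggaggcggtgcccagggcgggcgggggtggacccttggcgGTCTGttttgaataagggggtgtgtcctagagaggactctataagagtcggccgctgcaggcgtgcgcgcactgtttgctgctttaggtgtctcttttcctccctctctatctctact
Grem1 held 1 GGCGCC and 2 CAGAC boxes, Id2 held 1 GGCGCC and 0 CAGAC boxes, and Id3 held 0 and 2. Among 32851 promoters of the same length, 11.9% held GGCGCC and 49.6% held CAGAC on either strand, and the motifs, which could share 1 base at most, do not overlap here. The RefSeq table matched 7 of the 9 members, all but Id1 and Bmp7. Of those matched but not shown, Bmpr1a and Bmpr2 held 1 GGCGCC and 0 CAGAC boxes each, and Bmp4 and Smad6 held 0 of both. A match describes the letters in this window.

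Values are the authors' gene counts divided by a DESeq2 size factor for each library (normalized counts). Reads assigned to genes numbered 15124888 to 20419830 in the KPCAf/f lines and 16342887 to 19217899 in the KPC lines. Arid1a lay between 1253 and 1785 normalized counts in KPCAf/f lines and between 820 and 3109 in KPC lines, and a gene-level count does not check the deletion. Uty, Kdm5d, Ddx3y and Eif2s3y, 4 genes of the Y chromosome, had 0 to 3 reads together in each KPCAf/f line and 1148 to 3415 in each KPC line, so genotype and Y-linked expression cannot be told apart. Of the 8 pancreatic epithelial markers, Pdx1 and Cdh1 stood at 2.70 and 10.8 normalized counts in KPCAf/f line A1693, against at least 775 and 3143 in the other KPCAf/f lines, while Sox9, of the same list, was highest of all lines there at 945. KPC line A1620 stood apart in another way, with a slope of -0.65 (log2) for each doubling of transcript length, set against the average line. Results are therefore also given without these 2 lines.

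Grem1 was far higher in the KPCAf/f lines, which all expressed it, and low in every KPC line. It had 788 normalized counts in A1693, 2644 in A1809, 25320.5 in A1925, 31079 in A2441 and 941 in A3992 among the KPCAf/f lines, against 3.79 in A1081, 9.27 in A1620, 109 in A1625, 26.8 in A2031 and 22.7 in A2032 among the KPC lines. The genotypes did not overlap, and A1925 and A2441 stood about an order of magnitude above the other KPCAf/f lines. The mean was 12154 ± 14806 in KPCAf/f and 34.2 ± 42.6 in KPC (SD, n = 5 each), a ratio of means of 355. A2441 and A1625 weighed most on these means, which were 7423 ± 11961 in KPCAf/f without A2441 and 15.6 ± 10.9 in KPC without A1625 (n = 4 each). Folds of genes with few reads come out too small on the scale used for tests, log2(normalized count + 1). On it KPCAf/f exceeded KPC by 7.73 (SE 1.18), by 8.35 without A1693, by 7.49 without A1620 and by 8.10 without both. Among all 13089 tested genes, the genotypes did not overlap for 2.84% with KPCAf/f higher and for 1.69% with KPCAf/f lower. The Grem1 gene spans chr2:113746164-113758646, minus strand, in GRCm38, and no other annotated gene overlaps it.

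**Figure D1:**
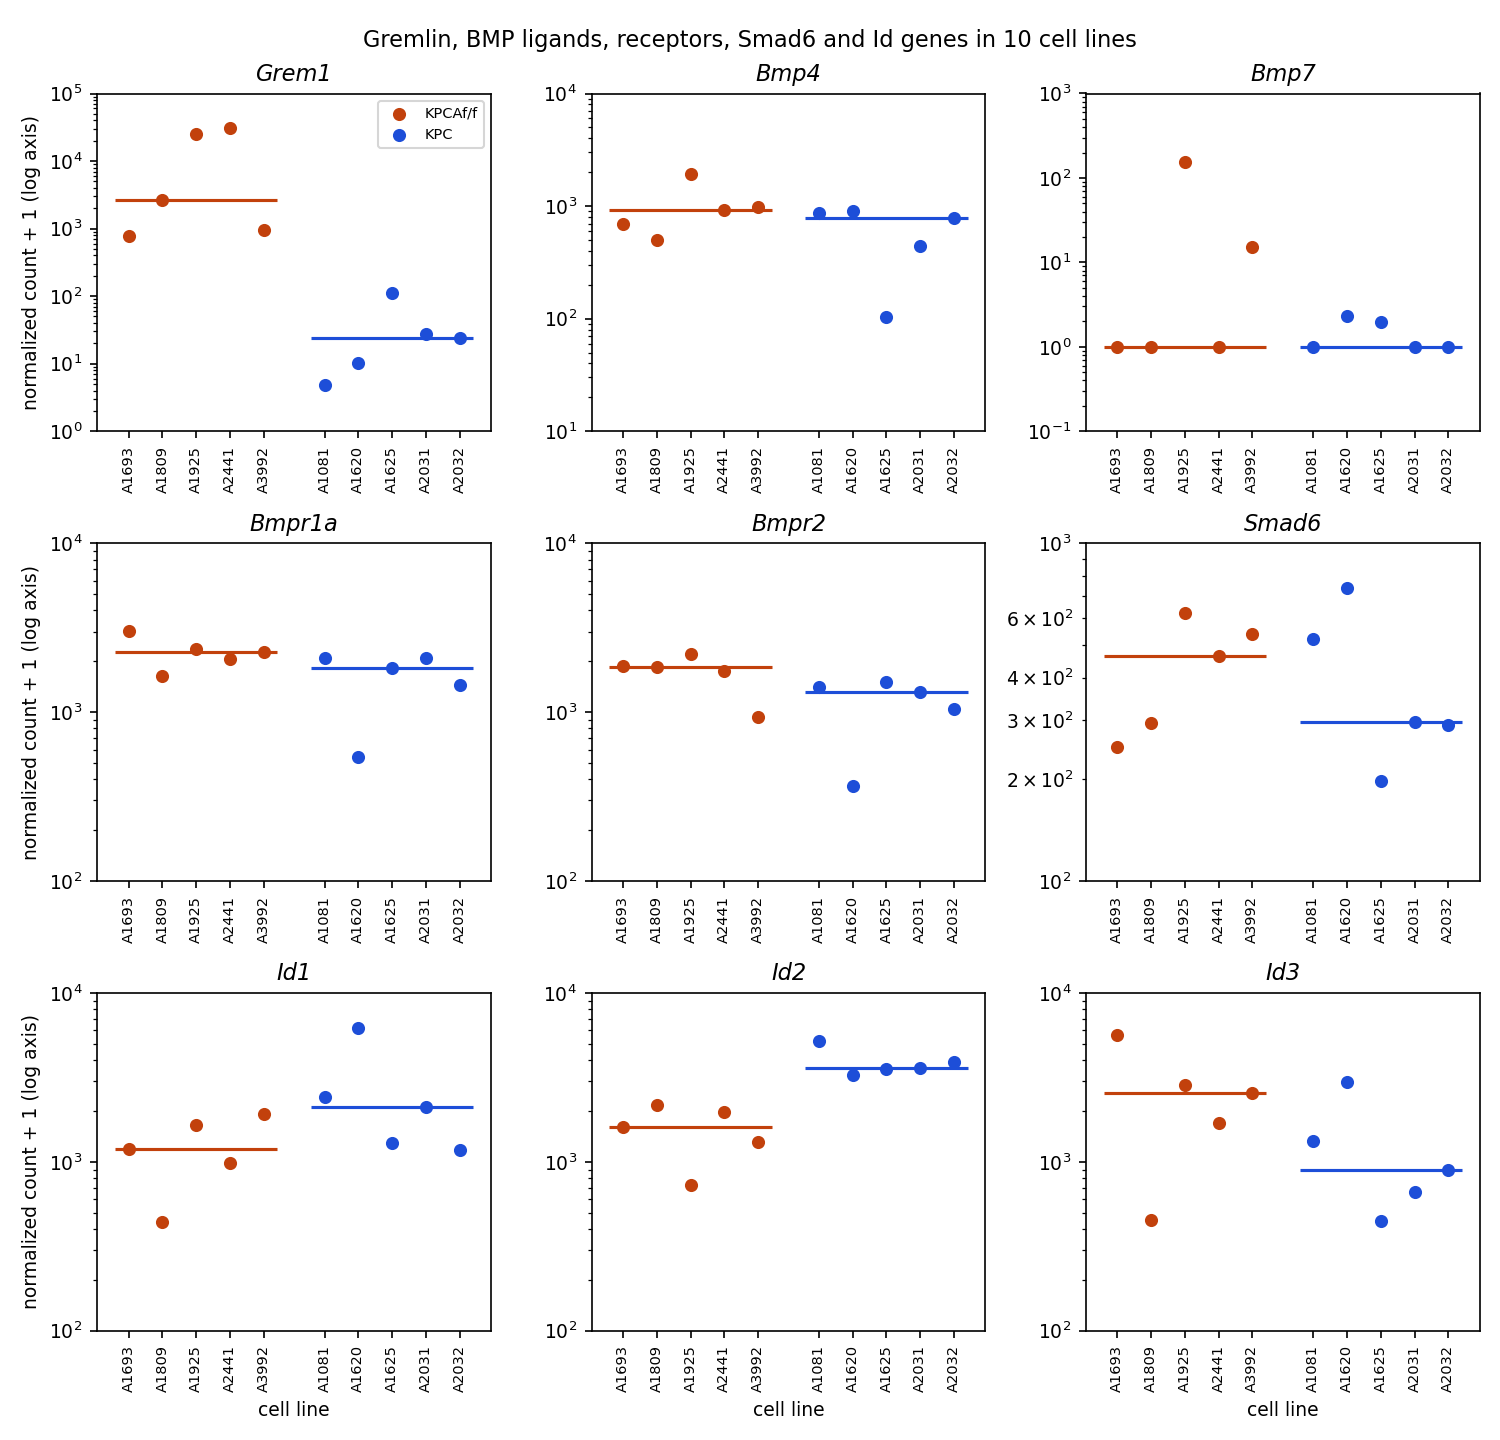
Normalized count plus 1 (log axis) of the 9 genes in each cell line, KPCAf/f lines on the left (orange) and KPC lines on the right (blue), with a bar at the median of each genotype. Grem1 and Id2 are the genes whose genotypes do not overlap, Bmp7 is above 2 reads in A1925 and A3992 alone, and A1620 is the lowest line for both receptors.

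Several markers of mesenchymal cells were higher in the same lines as Grem1. The summed level of 10 fibroblast markers was 14717 to 88400 normalized counts in KPCAf/f lines and 62.9 to 173 in KPC lines, and 5 of the 5 markers with enough reads to be tested were higher in KPCAf/f (limma adjusted p under 0.05, which 1.36% of all tested genes met in that direction). Of these 5, Col1a2, Col3a1 and Pdgfrb were under 10 normalized counts in every KPC line and passed the filter on low values through the KPCAf/f lines alone, so that they had to be higher there. Col1a1 and Pdgfra are the other 2. Lum and Fap had 0 reads in every KPC line, and Fap did not exceed 4.50 normalized counts in any KPCAf/f line. Col1a2 alone made up 71336 of the highest sum, 88400 in A1693. Summed pericyte and smooth muscle markers were at 363 to 3253 in KPCAf/f lines and 4.12 to 77.6 in KPC lines. Acta2 and Cspg4 made up most of it in KPCAf/f lines, while Rgs5, Myh11 and Des overlapped between the genotypes and reached at most 14.6 in any line. Summed epithelial markers were at 6871 to 114444 in KPCAf/f lines and 128212 to 271900 in KPC lines, and Krt8, Krt18 and Krt19 made up most of each sum. All 8 were tested and 0 were called higher or lower by limma, where 1.75% of all tested genes were called. Krt18 and Muc1 were lower in every KPCAf/f line than in any KPC line, as 1.69% of all tested genes were. The rest overlapped, and Epcam was highest of all lines in KPCAf/f line A1809, at 6720. Endothelial markers summed to 7.20 to 673 in KPCAf/f lines and 13.4 to 441 in KPC lines, and leukocyte markers to 66.1 to 293 and 45.8 to 111, in the same order. Acinar markers summed to 13.9 to 119 in KPCAf/f lines and 35.8 to 192 in KPC lines, with Amy2b at 0 in every line, and neural and glial markers to 32.6 to 845 and 54.6 to 208. In bulk libraries a different share of cells and a different amount of RNA per cell cannot be told apart, and the part of these markers in the Grem1 result was not tested.

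Of the ligands, Bmp4 was expressed in every line and Bmp7 in few. Bmp4, which signals through Bmpr1a, had 692, 498, 1912, 915 and 982 normalized counts in KPCAf/f lines A1693, A1809, A1925, A2441 and A3992, against 859.6, 897, 103, 444 and 780.4 in KPC lines A1081, A1620, A1625, A2031 and A2032. The genotypes overlapped, with A1925 highest of all lines and A1625, the KPC line with the most Grem1, lowest. The means were 999.9 ± 544 in KPCAf/f and 617 ± 339 in KPC (SD, n = 5 each), and the mean log2 levels differed by 0.88 (SE 0.59), which missed the threshold over all genes (limma adjusted p = 0.507). Without A1625 the log2 difference was 0.33, and without A1620 and A1693 it was 1.2. Bmp4 spans chr14:46383520-46390669, minus strand, in GRCm38 and shares 89 exon bases with Gm15217 on the opposite strand, which had 0 reads in every line.

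Bmp7, another ligand that gremlin binds, had 153 normalized counts in A1925 and 14.1 in A3992, and 0 reads in the other KPCAf/f lines, against 1 read in A1620, 1 in A1625 and 0 in the other KPC lines. A count of 0 allows up to 3 reads, which is 2.46 to 3.37 normalized counts in those KPCAf/f libraries, for counting error alone. It did not reach the 10 normalized counts in at least 5 lines needed for a test. The line with the most Bmp7 was also the line with the most Bmp4.

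Both receptors were expressed in all lines, and in normalized counts A1620 was the lowest line for each. Bmpr1a, a type I receptor, averaged 2269 ± 504 normalized counts in KPCAf/f and 1599 ± 645 in KPC (SD, n = 5 each). KPCAf/f lines lay between 1639 and 3018 and KPC lines between 544 in A1620 and 2102, with 1452 the next lowest. Bmpr2, the type II receptor, averaged 1725 ± 475 in KPCAf/f and 1126 ± 460.2 in KPC, with A3992 at 937 as the lowest KPCAf/f line and A1620 at 364 as the lowest KPC line. The log2 differences were 0.62 (SE 0.36, limma adjusted p = 0.441) and 0.71 (SE 0.39, limma adjusted p = 0.423). Without A1620 they were 0.27 and 0.35, and without A1620 and A1693 0.16 and 0.31. The longest annotated transcripts have 5956 bases for Bmpr1a and 12899 for Bmpr2, the longest of the 9 genes, and with a correction for transcript length the log2 differences were 0.42 and 0.32. A1620 was then still the lowest line for Bmpr1a but not for Bmpr2, where A2032 and A3992 were lower. Bmpr1a shares 290 exon bases with Gm17110 on the opposite strand, which had at most 2 reads in a line.

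Smad6, which blocks BMP receptor signalling and is itself induced by it, differed between the genotypes by less than the spread of the lines. It had 248, 292, 619, 462 and 539 normalized counts in KPCAf/f lines A1693, A1809, A1925, A2441 and A3992, against 519.7, 736, 197, 294 and 289 in KPC lines A1081, A1620, A1625, A2031 and A2032. The log2 difference was 0.16 (SE 0.40, limma adjusted p = 0.866) and turned to -0.06 without A1625. It was 0.59 without A1620 and A1693.

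Among the 3 Id genes, Id2 was lower in every KPCAf/f line than in any KPC line, while the log2 differences of Id1 and Id3, -0.98 and 0.98, had opposite signs and did not pass the test. Id2 had 1606, 2183, 729, 1961 and 1316 normalized counts in KPCAf/f lines A1693, A1809, A1925, A2441 and A3992, against 5197, 3282, 3553, 3584 and 3912 in KPC lines A1081, A1620, A1625, A2031 and A2032. The means were 1559 ± 570.1 in KPCAf/f and 3906 ± 756 in KPC (SD, n = 5 each), and the lowest level of all lines was in A1925. The log2 difference was -1.40 (SE 0.29), -1.44 without A1693, -1.46 without A1620 and -1.49 without both. With the correction for transcript length it was -1.28. The genotypes then all but met, with the lowest KPC line, A1620, at 11.16 on the log2 scale and the highest KPCAf/f line, A1809, at 11.14. Id2 was chosen for this difference, which is therefore a description.

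Id1 stood at 1187, 437, 1644, 989 and 1923 normalized counts across KPCAf/f lines in the same line order, against 2417, 6158, 1295, 2118 and 1180.5 in the KPC lines. The groups overlapped, with A1809 lowest and A1620 highest of all lines. On the log2 scale KPCAf/f minus KPC was -0.98 (SE 0.50), short of the threshold (limma adjusted p = 0.392). It was -0.63 without A1620 and A1693, and was -0.60 without A1620, where the KPC mean was 1753 ± 609 (n = 4) in place of 2634 ± 2039 (n = 5). With the correction for transcript length the log2 difference of Id1 was -0.70.

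Id3 stood at 5629, 451, 2844, 1697 and 2540.1 normalized counts across KPCAf/f lines, against 1333, 2972, 446, 662 and 899 in the KPC lines. A1693 was highest of all lines, while A1809 stood as low as A1625. The log2 difference was 0.98 (SE 0.66, limma adjusted p = 0.512), 0.60 without A1693, 0.99 without A1620 and A1693, and 1.51 without A1809. With the correction for transcript length it was 1.22. Of the 6 tested members that had not been picked for their change, 0 passed by limma, edgeR, DESeq2 or limma-voom, where these called 1.75%, 1.31%, 5.70% and 0.802% of all tested genes in either direction, in that order of tools. At an unadjusted p under 0.05 there were 0 by limma, edgeR and limma-voom and 1 by DESeq2, which was Id1, where 14.6%, 14.6%, 14.2% and 17.1% of all tested genes met that cutoff by limma, edgeR, limma-voom and DESeq2.

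Per kilobase of the longest transcript, the mean levels of the Id genes stood in a different order in each genotype. In KPCAf/f lines Id3 averaged 2060 ± 1498 normalized counts per kb, Id1 1066 ± 499 and Id2 792 ± 289.5, and in KPC lines Id1 averaged 2270.4 ± 1758, Id2 1984 ± 384 and Id3 988 ± 791 (SD, n = 5 each). Neighbours in each order differed by less than the larger of their SDs, except Id2 and Id3 in the KPC lines. There Id3 was lower than Id2 in every line but A1620. The place of Id1 above Id2 in the KPC means rested on A1620, with Id1 at 5309 and Id2 at 1667 per kb. Id1 was below Id2 in A1081 (2083 and 2639), A1625 (1117 and 1805) and A2032 (1018 and 1987). In A2031 Id1 and Id2 were nearly level, at 1826 and 1820 per kb. Id3 made up 70.4%, 19.2%, 55.3%, 41.8% and 46.0% of the summed Id1 to Id4 level per kb in KPCAf/f lines A1693, A1809, A1925, A2441 and A3992, against 10.7% to 25.0% in the KPC lines. Only A1809 of the KPCAf/f lines fell within the KPC range, and Id2 made up 60.3% there. Id4 was at most 0.261% in any line.

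The ratio of Id1 to Id3 within a line, looked at after the values were seen and so given with no test, did not overlap between the genotypes. It was 0.232, 1.07, 0.637, 0.642 and 0.834 in KPCAf/f lines A1693, A1809, A1925, A2441 and A3992, against 2.0, 2.28, 3.20, 3.53 and 1.45 in KPC lines A1081, A1620, A1625, A2031 and A2032. Both transcripts are short, 1160.0 and 1278 bases, and a ratio within a line does not depend on library scaling. A1809, the KPCAf/f line with the least Id1 and Id3, had the highest ratio of its genotype, and A1620, the KPC line with the most of both, had the median ratio of its genotype. The ratio of Id3 to Id2 overlapped, at 0.318 to 6.01 in KPCAf/f lines and 0.193 to 1.40 in KPC lines. So did that of Id1 to Id2, at 0.340 to 3.83 and 0.512 to 3.18 in the same order. How often the ratio of other gene pairs does not overlap was not tested.

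**Figure D2:**
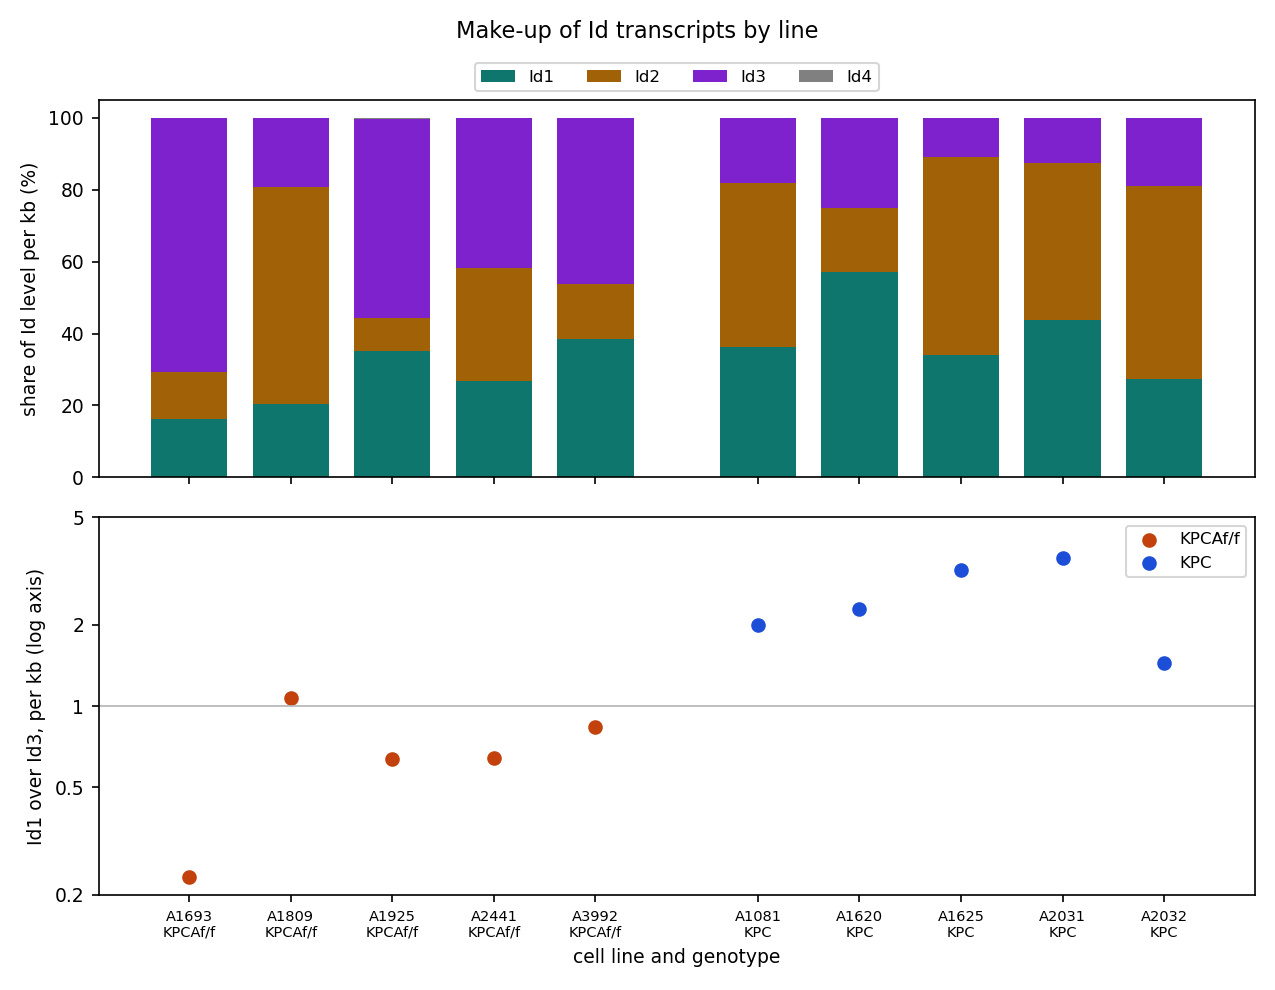
Share of each Id gene in the summed Id1 to Id4 level per kilobase (top, percent) and the ratio of Id1 to Id3 per kilobase (bottom, log axis) for each line, KPCAf/f on the left and KPC on the right. The ratio is at most 1.07 in KPCAf/f lines and at least 1.45 in KPC lines. The ratios of Id1 and of Id3 to Id2, not drawn, overlap between the genotypes.

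The mean levels of the other members per kilobase were lower than those of the 3 Id genes in KPC lines. There Bmp4 averaged 299 ± 164 normalized counts per kb, Bmpr1a 269 ± 108, Smad6 137 ± 73.8, Bmpr2 87.3 ± 35.7, Grem1 8.25 ± 10.3 and Bmp7 0.126 ± 0.175 (SD, n = 5). In KPCAf/f lines Grem1, at 2930.2 ± 3569 per kb, had the highest mean of the 9 genes, though not beyond its spread, and Bmp4 was at 484 ± 264, Bmpr1a at 381 ± 84.6, Smad6 at 145 ± 53.4, Bmpr2 at 134 ± 36.8 and Bmp7 at 9.13 ± 18.3. The Grem1 mean rests on A1925 and A2441, at 6104 and 7492 per kb. In A1693, A1809 and A3992 Grem1 was at 190, 638 and 227 per kb, below Id2 at 816, 1109 and 669.

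Grem1 was then related to the Id genes and Smad6 line by line. A correlation over both genotypes together would repeat the choice of Grem1 and Id2, so deviations from the genotype mean on the log2 scale were compared over the 10 lines, with an exact permutation test over the 14400 orders of lines within genotypes, two-sided, for 4 relations. Id3 had a Pearson r of -0.37 with Grem1 (exact permutation p = 0.362, adjusted p = 0.670) and a Spearman rho of -0.44 (p = 0.239, adjusted p = 0.704). Id2 had an r of -0.33 (exact permutation p = 0.497, adjusted p = 0.670) and a rho of -0.15 (p = 0.717, adjusted p = 0.956). Id1 had an r of -0.25 (exact permutation p = 0.503, adjusted p = 0.670) and a rho of -0.36 (p = 0.352, adjusted p = 0.704). For Smad6 the r was -0.10 (exact permutation p = 0.784, adjusted p = 0.784) and the rho 0.01 (p = 1.0, adjusted p = 1.0). None of the 4 relations passed.

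A2441 and A1925 lay farthest from the median Grem1 deviation. Without them, over 8 lines and 720 orders, r was -0.74 for Id3 (exact permutation p = 0.0250, adjusted p = 0.100), -0.64 for Id1 (p = 0.114, adjusted p = 0.152), -0.74 for Smad6 (p = 0.0625, adjusted p = 0.125) and -0.15 for Id2 (p = 0.722, adjusted p = 0.722). Spearman's rho for Id3 was then -0.81 (exact permutation p = 0.0111, adjusted p = 0.0444). Among the KPC lines, Grem1 was lowest in A1081 and A1620, which held the most Id1, Id3 and Smad6, and highest in A1625, which held the least Id3 and Smad6. Grem1 had only 4 reads in A1081 and 7 in A1620. With the correction for transcript length, A1620 fell from 12.59 to 11.55 (log2) for Id1 and from 11.54 to 10.59 for Id3. It and A1081 were still the highest KPC lines for Id1, Id3 and Smad6. The relation was not tested on corrected levels. Among the KPCAf/f lines A1925, with the second highest Grem1, had the least Id2, the second most Id1 and Id3 and the most Smad6, and A2441, with the highest Grem1, had the second most Id2.

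**Figure D3:**
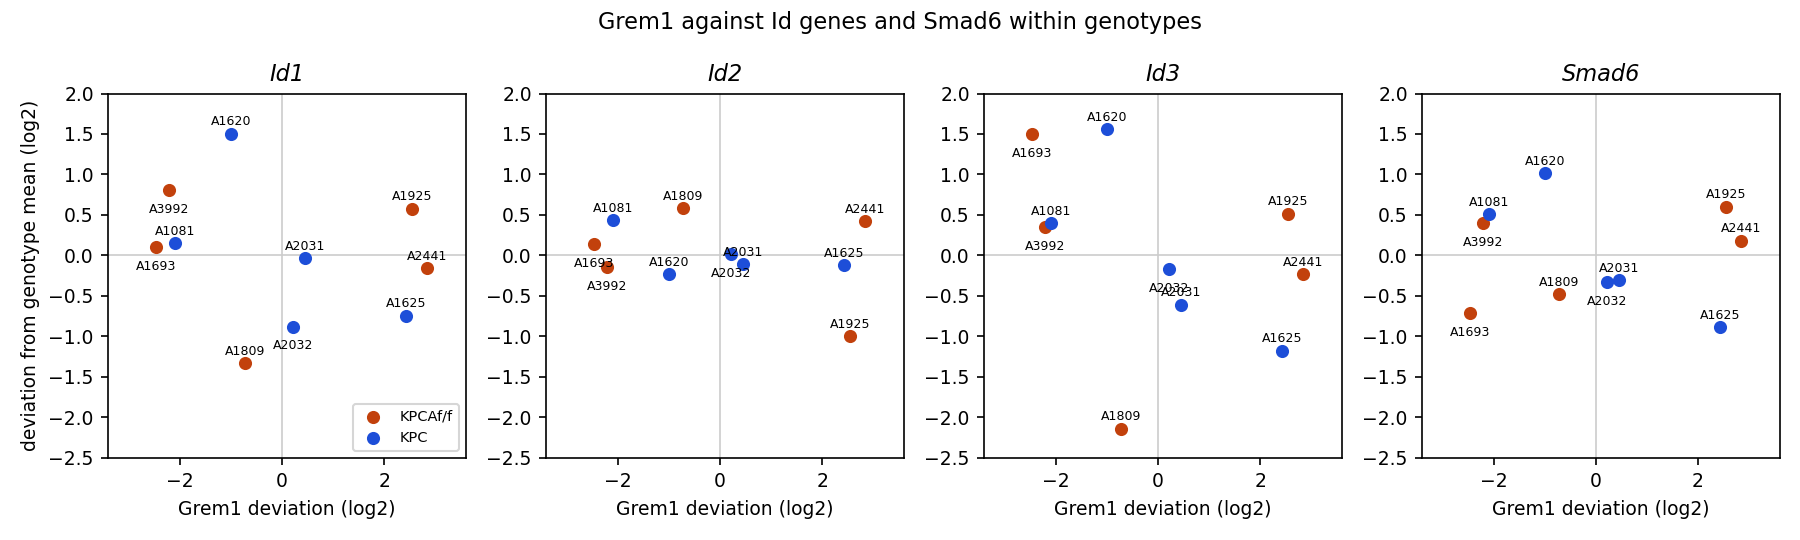
Deviation of each line from its genotype mean for Grem1 (x, log2) and for Id1, Id2, Id3 and Smad6 (y, log2), KPCAf/f in orange and KPC in blue. Over the 10 lines Pearson r lies between -0.37 and -0.10, and none of the 4 relations passed the test.

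The rest of the BMP pathway was read from 6 lists holding 58 genes besides the members, 1 of them under an older symbol, and 35 had enough reads to be tested. Of these 35, 2 were higher in KPCAf/f and 0 lower by limma, or 5.71%, where 1.36% of all tested genes were called higher and 0.390% lower. At an unadjusted limma p under 0.05, 6 of the 35 (17.1%) were higher and 0 lower, where 14.6% of all tested genes met that cutoff, 8.39% higher and 6.26% lower. By edgeR and limma-voom 1 was higher and by DESeq2 4, with 0 lower by each. DESeq2 gave no adjusted p for Eng and Tcf4. Bambi is among the 6 and among the 4 called by DESeq2. It passed the filter on low values through the KPCAf/f lines alone, so that it had to be higher there. Of all tested genes edgeR called 1.11% higher and 0.206% lower, DESeq2 4.06% higher and 1.64% lower, and limma-voom 0.581% higher and 0.222% lower. The median log2 difference was 0.46, against -0.01 over all 13089 tested genes. The lists were written with earlier results of these lines known.

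Both called genes were antagonists, out of 10 tested and 17 listed. Fstl1, a secreted follistatin-like protein that binds BMPs, had 6687, 1479, 11041, 4938 and 2875 normalized counts in KPCAf/f lines A1693, A1809, A1925, A2441 and A3992, against 68.2, 134, 4.89, 5.59 and 111 in KPC lines A1081, A1620, A1625, A2031 and A2032. The genotypes did not overlap, and the log2 difference was 7.03 (SE 0.96, limma adjusted p = 0.00318, at most 0.0122 with any 1 line left out). Fst, which binds activins and some BMPs, had 377 to 1175 in KPCAf/f lines and 24.7 to 382 in KPC lines (log2 difference 3.17, SE 0.68, limma adjusted p = 0.0421). Its call was lost in 11 of 22 other settings, among them edgeR (adjusted p = 0.140) and limma-voom (adjusted p = 0.0616). With 1 line left out it held without A1809 or A1081 and was lost without any other line, with adjusted p up to 0.104. Bambi, a decoy receptor induced by BMP and TGF-beta, had 252, 13.1, 31.2, 14.6 and 52.0 in the KPCAf/f lines and 0 to 9.47 in the KPC lines (limma adjusted p = 0.157, DESeq2 adjusted p = 0.00714), and was tested only because every KPCAf/f line reached 10. Noggin and chordin, the best known extracellular antagonists, had means of 4.29 ± 2.12 in KPCAf/f and 3.6 ± 6.89 in KPC for Nog and 117 ± 118 and 42.6 ± 24.2 for Chrd in the same order.

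Among 4 tested ligands of 12 listed, 0 passed by limma, edgeR or limma-voom, 0 had an unadjusted limma p under 0.05 and 1 was higher by DESeq2. That was Bmp2, with 45.0, 46.7, 883, 407 and 157 normalized counts in KPCAf/f lines A1693, A1809, A1925, A2441 and A3992, against 34.1, 18.5, 63.6, 78.2 and 82.5 in KPC lines A1081, A1620, A1625, A2031 and A2032 (limma adjusted p = 0.362, DESeq2 adjusted p = 0.0291). The highest levels were in A1925 and A2441, the lines with the most Grem1. Bmp8b ran from 0.90 in A1693 to 1474 in A1809 among KPCAf/f lines and from 82.5 to 1708 among KPC lines (limma adjusted p = 0.390), and Bmp8a from 0 to 28.2 and from 10.6 to 55.9 in the same order (limma adjusted p = 0.535). Bmp8a and Bmp8b are close paralogs and may share reads.

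Among 6 tested receptors and co-receptors of 9 listed, 0 passed by limma, edgeR or limma-voom. By DESeq2 0 passed of those given an adjusted p, which left out Eng. At an unadjusted limma p under 0.05, 2 were higher, where 8.39% of all tested genes met that cutoff in that direction. These were the co-receptors Rgma, at 137 ± 154 in KPCAf/f and 39.7 ± 58.2 in KPC (limma adjusted p = 0.310), and Rgmb, at 302 ± 79.7 and 189 ± 66.0 in the same order (limma adjusted p = 0.336). Acvr1, another type I receptor, was at 821 ± 348 in KPCAf/f and 586 ± 200 in KPC (limma adjusted p = 0.547). Of 9 SMADs and regulators, 0 passed by limma, edgeR, DESeq2 or limma-voom and 0 had an unadjusted limma p under 0.05. Smad5, which carries the BMP signal, was at 1638 ± 537 in KPCAf/f and 1159 ± 287 in KPC (limma adjusted p = 0.470), the repressor Ski at 2310 ± 408 and 1832 ± 593 (limma adjusted p = 0.504), and the ubiquitin ligase Smurf1 at 2834 ± 1143 and 2081 ± 550 (limma adjusted p = 0.526).

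Of 6 tested targets other than the members, 0 passed by limma, edgeR or limma-voom. Bambi was the 1 with an unadjusted limma p under 0.05 and the 1 called by DESeq2, and it was tested only through its KPCAf/f levels, as said above. Dlx3, a homeobox factor, was at 52.3 ± 69.3 in KPCAf/f and 82.8 ± 131 in KPC (limma adjusted p = 0.633), and Smad9 at 82.9 ± 67.4 and 45.0 ± 7.80 (limma adjusted p = 0.709). The E proteins that Id factors bind were expressed in all lines. Tcf12 averaged 3356 ± 918 in KPCAf/f and 1897 ± 1006 in KPC (limma adjusted p = 0.337), with A1620 at 415, Tcf4 averaged 1675 ± 1598 and 713 ± 207 (limma adjusted p = 0.374), and Tcf3 averaged 2316 ± 685 and 1837 ± 389.6 (limma adjusted p = 0.575). By edgeR and limma-voom 0 of the 3 passed, and 0 of the 2 for which DESeq2 gave an adjusted p, which left out Tcf4. Tcf12 had an unadjusted limma p under 0.05.

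**Figure D4:**
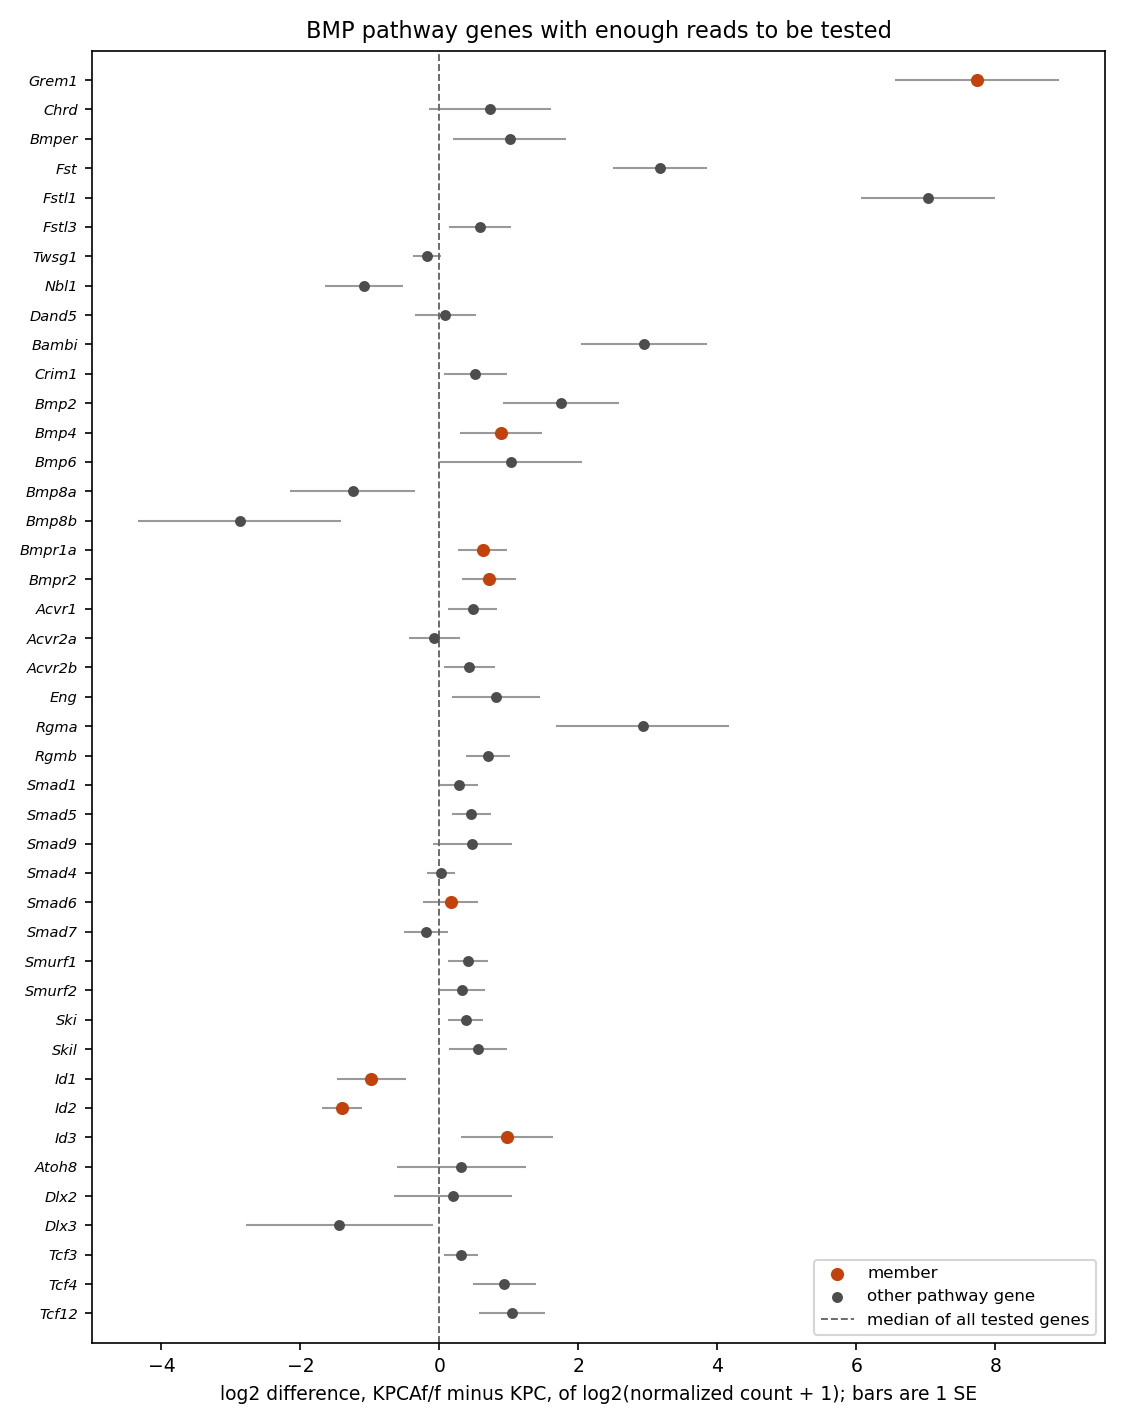
Log2 difference (KPCAf/f minus KPC, with 1 SE) of each tested BMP pathway gene, the 8 tested members in orange and the other genes in grey, with a dashed line at the median of all tested genes. Grem1 at 7.73 and Fstl1 at 7.03 lie farthest to the right, and Id1 and Id2 lie to the left of the line while Id3 lies to the right.

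Over the 10 lines, the genes whose log2 levels followed Grem1 most closely among 11628 compared were Has2, a hyaluronan synthase (Pearson r 0.98), Tgfb1i1, a focal adhesion adaptor (0.98), Rnf150 (0.96), Fam20a (0.94) and the receptor Pdgfrb (0.94). Has2 had 47.7, 95.8, 249, 327 and 106 normalized counts in KPCAf/f lines A1693, A1809, A1925, A2441 and A3992, against 1.89 to 30.3 in KPC lines, with A1625 highest of the KPC lines as it was for Grem1. For Id2 the closest were Pdxk (0.94), Afg3l2 (0.92), Acan, the proteoglycan aggrecan (0.90), Pkhd1l1 (0.90) and Procr, the protein C receptor (0.88). Pdxk, which makes the active form of vitamin B6, averaged 610.5 ± 230 in KPCAf/f and 1225 ± 281 in KPC (SD, n = 5 each) and was lowest in A1925, as Id2 was. These r values include the difference between genotypes, for which Grem1 and Id2 were picked, and describe likeness alone.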

How the data were processed

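The upstream tools, per the submitters' processing notes, included STAR 2.5.2b, Trimmomatic 0.36, bcl2fastq 1.8.4, R 3.3.2 with DESeq2 1.14.1, and Subread 1.5.0p3 for featureCounts, and the builds GRCm38.p5 and mm9 are named without a role. The libraries came from a stranded mRNA kit, per the labels' protocols, and the sources used here do not give the counting annotation or strand setting. The deposited signal is the authors' gene counts divided by size factors. Dividing by what 1 read is worth gave whole reads within 0.001 for 100.0% of values in each library. No libraries were copies of each other (lowest chi-square per degree of freedom 60.6).

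In R 4.3.3, log2(normalized count + 1) was tested two-sided by limma 3.58.1 (trend on mean level), adjusted by Benjamini-Hochberg over 13089 genes with at least 10 normalized counts in at least 5 lines. A gene under 10 in every KPC line therefore needed 10 or more in each KPCAf/f line. Other settings were pseudocounts of 0.5 and 5, a filter at a mean of 100 or none, TMM scaling, quantile scaling, weights per library, a lowess correction for transcript length (span 0.5), each line left out, A1620 and A1693 left out, and count tests of the recovered reads by DESeq2 1.42.0, limma-voom and edgeR 4.0.16. The fits and the relation test were tested on simulated data. Positions and transcript lengths come from GENCODE M21 (GRCm38) and promoters from RefSeq. The members and lists were chosen with earlier results of these data known. Named pathway genes are up to 3 of each list with the smallest limma p, and likeness is the 5 highest Pearson r. Nog, Chrd and the low genes of the closing section are named beyond that rule, chosen after their values were seen. Figures were drawn with matplotlib 3.10.9.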

Additional observations from a re-analysis of the deposited data

Results flagged for a closer look

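Within the 18 genotype groups of 5 lines examined for the 9 genes on the log2 scale, 3 held a line whose gap to the nearest line exceeded 0.71 of the group's range, and chance flags about 1 in 20 groups. Bmpr1a in KPC line A1620 was at 544 normalized counts, against 1452 to 2102 in the other KPC lines. Bmpr2 in KPC line A1620 was at 364, against 1039 to 1502 in the other KPC lines. A1620 is the line whose levels fell with transcript length. With the correction for transcript length, Bmpr2 in A1620 was at 9.998 on the log2 scale. KPC line A2032 was then lower, at 9.951, as was KPCAf/f line A3992, at 9.777. Bmpr1a in A1620 was still the lowest of all lines, at 9.88, with KPC line A2032 next at 10.41. The part of the length trend in these receptor values was not tested further. Bmpr2 in KPCAf/f line A3992 was at 937 normalized counts, against 1757 to 2219 in the other KPCAf/f lines.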

How the results depend on the processing

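Each of the 8 tested members was refitted under 22 other settings. Grem1 stayed between 7.02 and 8.47 on the log2 scale and Id2 between -1.63 and -1.15. Id1, Id3, Bmp4, Bmpr1a and Bmpr2 kept their sign and stayed short of the threshold in all 22, with adjusted p of 0.0961 (Id3 with array weights) or more, and Smad6 stayed short of it. The log2 difference of Smad6 ran from -0.06 to 0.41 with 1 line left out, and the value of -0.061 came without A1625. With array weights the log2 difference was larger for Bmp4 (1.74), Smad6 (0.71) and Id3 (1.62) and smaller in size for Id1 (-0.46), Bmpr1a (0.30) and Bmpr2 (0.43), each by over 1.5 times, and the cause was not tested. The count of other BMP pathway genes called higher, 2 in the limma fit of all lines, was 1 by edgeR, 4 by DESeq2, 1 by limma-voom, 1 without A1620 and A1693 and 1 to 2 with 1 line left out, and the count called lower was 0 throughout. The r of Grem1 with Id2 ran from -0.65 to 0.10 and that with Smad6 from -0.36 to 0.17 with 1 line left out, with adjusted p of at least 0.525 for each of them; positive values came without A1925 for Id2 and without A1081, A1620 or A1625 for Smad6. The r with Id3 ran from -0.66 without A1809 (exact permutation p = 0.0441, adjusted p = 0.176) to -0.20 without A1693 and was -0.25 without A1625. That with Id1 ran from -0.43 without A1925 to -0.12 without A1625, and was -0.41 without A1809 and -0.13 without A3992. No relation had an adjusted Pearson p under 0.05 in any of its 13 other settings. By Spearman's rho only Id3 passed, and only without A2441 and A1925 (rho -0.81, exact permutation adjusted p = 0.0444). At 15124888 to 20419830 reads per library, Bmp7 could not be told from 0 in most lines. With 5 lines a genotype, the SEs of the 6 members with a test were 0.36 to 0.66 on the log2 scale. Fst, with a log2 difference of 3.17 and an SE of 0.68, only just passed (limma adjusted p = 0.0421). Differences of several SEs could therefore be missed, and a member short of the threshold is not shown to be equal between the genotypes.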

Other observations

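Several BMP pathway genes too low for a test, looked up after the values were seen, had most of their reads in KPCAf/f lines. Gdf10, a ligand related to BMPs, had 111 normalized counts in A1925, 334 in A2441, 0.881 in A3992 and 0 in A1693 and A1809 among KPCAf/f lines, and 0 reads in every KPC line. A1925 and A2441 were also the lines with the most Grem1. Msx1, a homeobox target of BMP signalling, had 61.2, 4.09, 196, 27.0 and 0 normalized counts in KPCAf/f lines A1693, A1809, A1925, A2441 and A3992, and 0 to 5.87 in KPC lines. Bmpr1b, another type I receptor, reached 81.9 in A1693 and at most 14.3 in the other KPCAf/f lines, and 0 to 4.73 in KPC lines. Chrdl1, a chordin-like antagonist, had 46.8 in A1693, 42.2 in A1925 and 10.6 in A3992, at most 0.818 in the other KPCAf/f lines and at most 2.06 in KPC lines. The groups overlapped for each of these 4 genes.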
